A study of Danio rerio with 24 samples.

Results

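The livers of overfed and swim-trained zebrafish (OF-training) were compared with those of normally fed, untrained zebrafish (NF-control). Both groups held 6 adult fish of the ABTL strain, 3 females and 3 males, and were chosen by the training and feed labels of the samples. These 12 fish are part of a series of 24, whose remaining fish were overfed only (OF-control) or trained only (NF-training), again with 6 fish a group. OF-training fish received 9 mL of live shrimp per fish in the morning, and swam against a current in a swim tunnel for 20 sessions over 8 weeks. NF-control fish received a smaller shrimp ration and no training, and both groups received the same dry feed in the afternoon. All fish were fasted overnight before the livers were taken, a day after the last session. Fish were kept 6 to a tank and each group held 6 fish, so a group may have been 1 tank, and treatment and tank cannot be told apart.

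The comparison asks how the liver transcriptome differed when the high calorie diet and the training were given together. The liver takes up dietary fat and sugar, builds fatty acids and cholesterol when food is plentiful, and burns fatty acids in mitochondria and peroxisomes when energy is needed. The transcription factor SREBF1 drives the genes of fatty acid synthesis, and its relative SREBF2 those of sterol synthesis. In egg-laying females the liver also makes vitellogenin, the precursor of yolk proteins, under the control of estrogen, so female and male fish livers differ widely. Training and diet both differed between these groups, so this comparison alone cannot assign a difference to training, to diet or to their combination. The single treatments, which share the NF-control fish, are given beside it as values only.

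RNA was sequenced from whole pieces of liver, in which fewer cells of a type and less RNA per cell cannot be told apart. The 12 libraries held 19426667 to 21399321 estimated counts. Vitellogenin genes took 45.8 to 74.5% of the counts of NF-control females and 58.0 to 72.7% of those of OF-training females, but at most 0.159% in males. Levels are therefore given as CPM (counts scaled to a common library size) after a scaling (TMM) that corrects for such dominant genes, and sex was a term in every test over both sexes. The estrogen receptor ESR1 was at 154 to 521 CPM in the 6 females and at 1.02 to 1.46 CPM in the 6 males, so the levels match the sex labels of all 12 fish. All 11 hepatocyte markers were detected, with a summed level of 28038 to 83807 CPM in NF-control and 20768 to 107802 CPM in OF-training fish. One library stood apart in genes of the intestine. NF-control replicate 4, a male, carried transcripts of the intestinal brush border, with VIL1 at 198 CPM, SLC5A1 at 128 CPM and SLC6A19 at 102 CPM. In the other 11 fish of the comparison these genes stayed at or below 2.78 CPM, 1.54 CPM and 1.63 CPM. Values without this fish are given beside the results that it moved most.

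In total 1 of 16223 genes tested (0.00616%) passed an adjusted p of 0.05, and it was lower in OF-training fish (edgeR quasi-likelihood test with Benjamini-Hochberg adjustment). The count was not stable, at 0 when NF-control replicate 2, 3, 4 or 5 or OF-training replicate 2, 5 or 6 was left out and at 3 without OF-training replicate 1. At an unadjusted p under 0.05, 789 genes (4.86%) were higher and 941 (5.8%) were lower. The counts given below for gene lists at this threshold are to be read beside these shares. A log2 fold change above 0 was found for 49.3% of all genes, with a median of -0.01. Complete separation within both sexes, with every OF-training fish of a sex beyond every NF-control fish of that sex in the same direction, was found for 120 higher (0.74%) and 124 lower genes (0.764%). Separation within 1 sex alone, given below for some genes, was not counted over all genes and has no such share beside it. The number of calls depended on the tool, as DESeq2 called 113 genes (35 higher and 78 lower) and limma voom 2. Genes described below did not pass the edgeR test unless this is said, and their values are given as measured. None of the 24 gene lists used here had a member that passed in edgeR. A rule named the 5 genes a direction with the smallest p and the 2 most expressed genes of each list. For the former, only genes with the same sign in both sexes and a symbol that is not a clone or locus name were eligible. Beyond these, genes were chosen for mention after their values were seen.

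Genes that this rule ranked first by p, without passing, lay at an adjusted p of 0.134 in edgeR. Among those lower in OF-training fish, NUDT3, which encodes a diphosphoinositol polyphosphate phosphohydrolase, was at 0.546 to 1.34 CPM in NF-control and at 0.0889 to 0.568 CPM in OF-training fish (log2 fold change -1.52, standard error 0.312). The cytokine receptor gene lifra was at 2.58 to 6.66 CPM against 0.953 to 3.07 CPM (-1.45, standard error 0.306). ZBTB1, a zinc finger transcription factor, was at 1.61 to 2.97 CPM against 0.676 to 1.67 CPM (-0.99), and the long noncoding RNA linc-nlrp12 at 1.75 to 5.26 CPM against 1.16 to 2.23 CPM (-1.01). For NUDT3, ZBTB1 and linc-nlrp12 the groups did not overlap within either sex. Among those higher, STARD4, a carrier of cholesterol between membranes, was at 9.40 to 12.5 CPM in NF-control and 15.9 to 25.8 CPM in OF-training fish, without overlap (log2 fold change 0.85, standard error 0.189). MTFP1, a mitochondrial inner membrane protein of the fission process, was at 5.95 to 8.05 CPM against 7.74 to 15.3 CPM (0.82, standard error 0.179) and was separated within each sex. SLC6A5, a glycine transporter, was at 1.16 to 3.65 CPM against 2.02 to 9.43 CPM (log2 fold change 1, standard error 0.218). The unconventional myosin MYO1H (2.73) and erich3 (1.97) were at most 0.182 and 0.376 CPM in NF-control fish. In OF-training males they were at 0.609 to 2.83 and 1.06 to 2.1 CPM. OF-training females had 1 to 2 and 1 to 3 estimated counts of them, against 0 to 1 and 0 to 2 in NF-control females. DESeq2 called STARD4, MTFP1, NUDT3, lifra, ZBTB1, linc-nlrp12, SLC6A5, MYO1H and erich3, with adjusted p-values of 0.00532 to 0.00869.

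**Figure D1:**
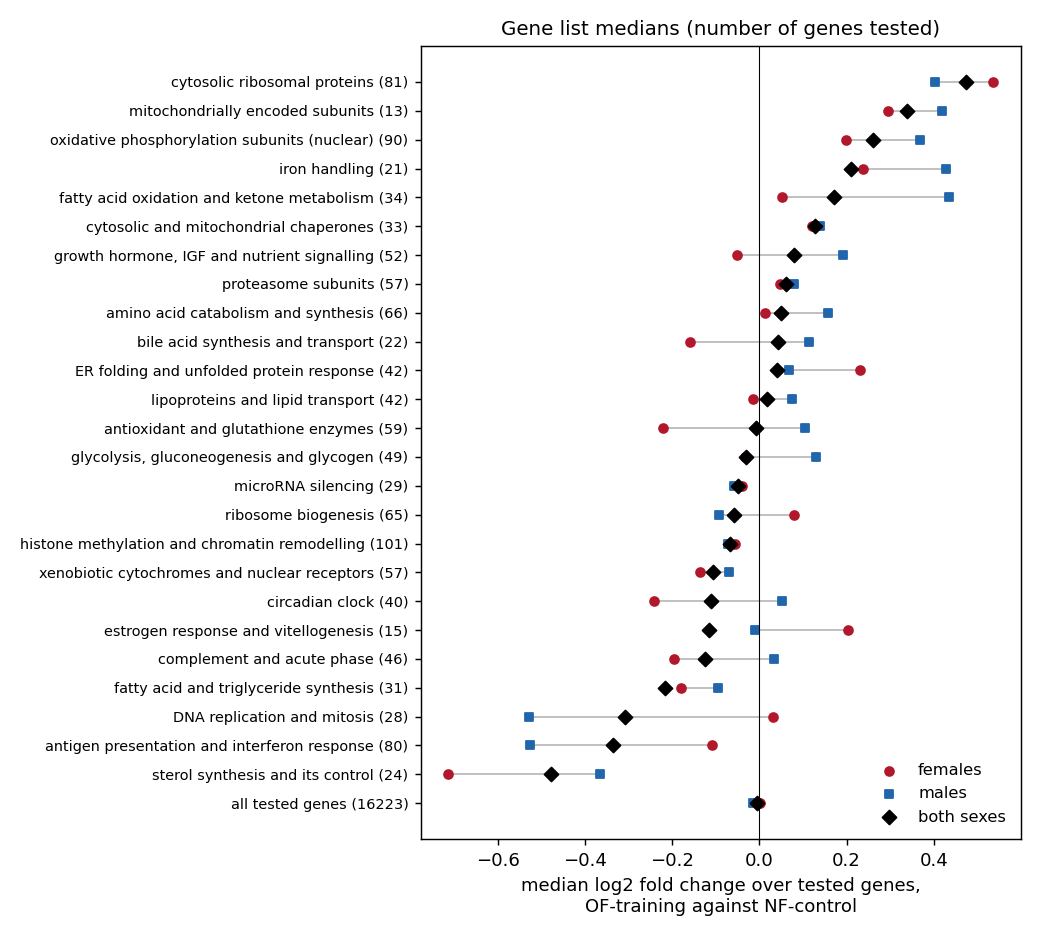
Median log2 fold change, OF-training against NF-control, over the tested genes of each list, with the number of genes tested in brackets. Diamonds show the fit over both sexes, circles females and squares males. The ribosomal list lay farthest to the right (0.47) and the sterol list farthest to the left (-0.48), with all tested genes at -0.01.

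Genes of the cytosolic ribosome lay higher in OF-training fish almost without exception, each by a small amount. These genes encode the protein part of the ribosome and follow the growth state of a cell. Of 81 tested, 80 had a positive log2 fold change and 73 had an unadjusted p under 0.05 and were higher, beside 4.86% of all genes. None was lower at that threshold and none passed the adjusted one. The list's median log2 fold change was 0.47, with 0.54 in females and 0.40 in males. RPLP0, of the ribosomal stalk, was at 3222, 5126 and 4348 CPM in NF-control females and at 7269, 5860 and 6020 CPM in OF-training females. In males RPLP0 was at 1051, 1465 and 1309 CPM against 1770, 2032 and 1446 CPM. The female groups did not overlap and the male groups did, by 1 fish a side (log2 fold change 0.52, standard error 0.210, adjusted p = 0.355). RPS13 was separated in both sexes, at 518 to 844 CPM against 970 to 1261 CPM in females and 247 to 290 CPM against 328 to 511 CPM in males (0.66, standard error 0.183, adjusted p = 0.196). It was the ribosomal gene that DESeq2 called (adjusted p = 0.0440). Complete separation in both sexes was found for 28 of the 81 genes, all higher. RPS29 showed it too (0.57, adjusted p = 0.213), whereas RPS2 did not (0.41, adjusted p = 0.424). The same list had a median of 0.12 with overfeeding alone and of 0.14 with training alone. Without NF-control replicate 4 the median was 0.44, with 56 genes higher at the unadjusted threshold, and without NF-control replicate 1 it was 0.38, with 41. The factors that assemble ribosomes did not follow the ribosomal proteins. Of 65 tested, 29 were positive and 1 was higher at the unadjusted threshold, with a median of -0.06. Among them the helicase DDX21 stood at 0.36 (adjusted p = 0.533) and nucleolin (ncl) at 0.28 (adjusted p = 0.733).

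Subunits of the respiratory chain lay higher as well, those of the mitochondrial genome and those of the nucleus. Of 90 nuclear subunits of oxidative phosphorylation 85 were positive, 30 were higher and 1 was lower at the unadjusted threshold, and 8 were separated in both sexes, all higher. Their median was 0.26, with 0.20 in females and 0.37 in males. The number of higher genes rested on single fish, at 15 (none lower) without NF-control replicate 4 and 17 without OF-training replicate 2, with medians of 0.24 and 0.22. The catalytic subunit of the ATP synthase, ATP5F1B, was at 421 to 495 CPM in all NF-control fish. In OF-training fish it was at 449, 548 and 503 CPM in females and at 799, 706 and 689 CPM in males, so that the male groups lay far apart and the female groups overlapped (0.40, standard error 0.162, adjusted p = 0.365). ATP5F1A, its partner subunit, was separated in both sexes, at 388 to 524 CPM against 476 to 684 CPM (0.38, adjusted p = 0.365). UQCRQ of complex III (0.42, adjusted p = 0.240) and ATP5F1D of the ATP synthase (0.45, adjusted p = 0.243) were separated in both sexes too. The subunit that was lower, ndufa4b (-1.51), was at 15.8 CPM in NF-control replicate 4 and at 0.773 to 1.95 CPM in the other 11 fish. Without that fish it stood at -0.29 (adjusted p = 0.867).

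All 13 protein genes of the mitochondrial genome were positive, with a median of 0.34, 10 higher at the unadjusted threshold (6 without OF-training replicate 1) and 7 separated in both sexes. MT-CO3, a subunit of cytochrome c oxidase, was at 4966, 5355 and 4774 CPM in NF-control females and at 4878, 4889 and 4634 CPM in NF-control males. In OF-training fish it was at 9820, 7141 and 6861 CPM in females and at 6118, 6570 and 7409 CPM in males. On the TMM scale no OF-training fish overlapped with any NF-control fish (0.57, standard error 0.138, adjusted p = 0.147 in edgeR and 0.00161 in DESeq2). MT-CO1 was likewise apart in all 12 fish, at 13236 to 15030 CPM against 15345 to 21090 CPM (0.36, adjusted p = 0.309), and so was MT-CO2 (0.41, adjusted p = 0.224). MT-CYB of complex III stood at 0.41 (adjusted p = 0.278). As a share of all counts, without the TMM factors, the 13 genes together overlapped in both sexes. The share was 2.03 to 3.84% against 2.40 to 3.24% in females and 6.14 to 8.02% against 6.93 to 9.01% in males. With overfeeding alone the median of these 13 genes was 0.31 and with training alone 0.30. For the nuclear subunits these medians were 0.23 and 0.08. This list of mitochondrial genes was added after the data were seen.

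**Figure D2:**
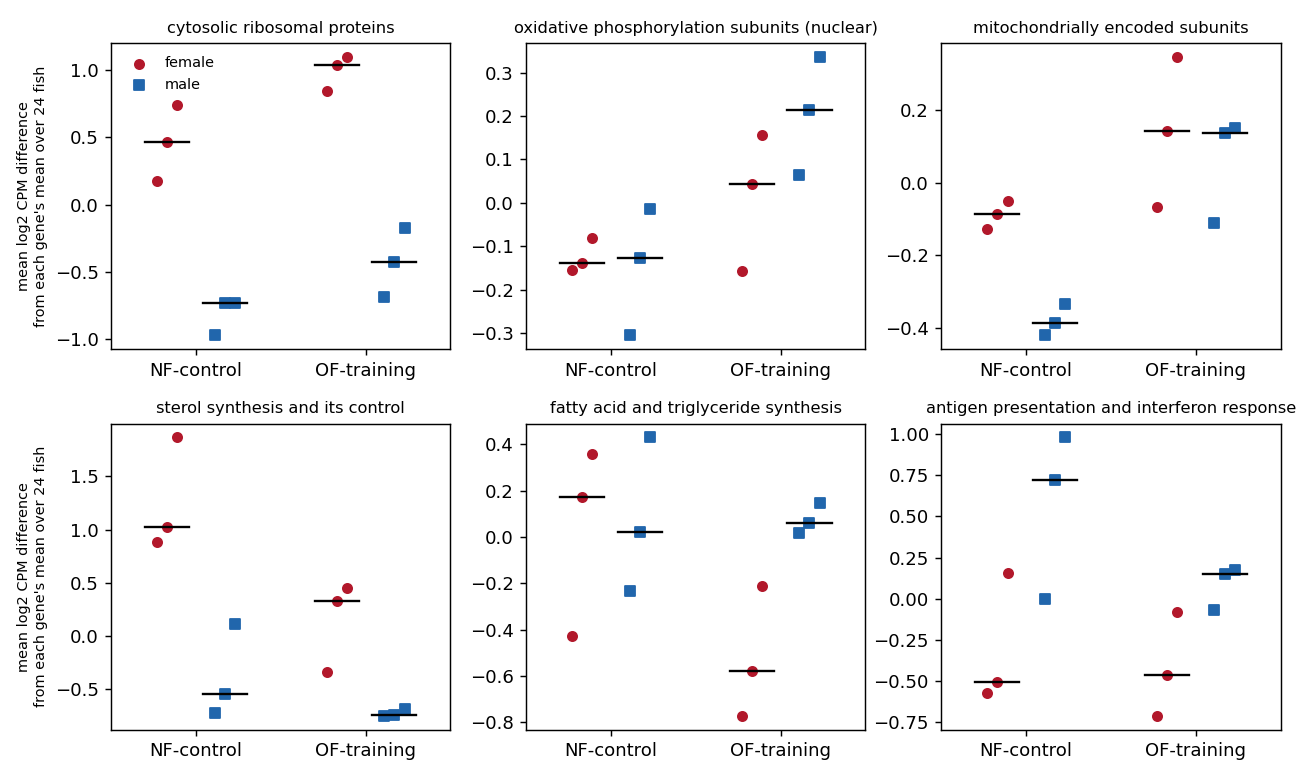
Level of 6 gene lists in each NF-control and OF-training fish, as the mean over tested members of log2 CPM relative to the mean of each gene over 24 fish, with a bar at the median of each sex. For ribosomal proteins both sexes were apart, with females at 0.18 to 0.74 against 0.848 to 1.096 and males at -0.97 to -0.73 against -0.69 to -0.18.

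Most ribosomal and respiratory transcripts are short, and short transcripts as a class lay slightly higher. Transcript length was not read from an annotation but inferred, as a relative value, from the ratio of the deposited counts to the deposited TPM. When all tested genes were ordered by this length and divided into 5 classes, the median log2 fold change was 0.07 in the shortest class and -0.07 in the longest. Of the ribosomal genes 76 of 81, of the nuclear respiratory genes 70 of 90 and of the mitochondrial genes 10 of 13 fell in the shortest class. After the trend with length was removed from each fish, the medians were 0.41, 0.21 and 0.31. These values came from a linear fit of log2 CPM (limma) in place of the edgeR fit. The change of fit and the removal of the trend cannot be told apart in them. Scaling also mattered for direction. In females the TMM factors were 0.480 to 0.947 in NF-control and 0.439 to 0.656 in OF-training fish. In males they were 1.59 to 2.16 against 1.46 to 1.59. With library size scaling, which leaves these factors out, the median of all genes was -0.28 and 20.1% of genes were positive. The source of this shift was not tested. Relative to that shift the ribosomal median was 0.51, the nuclear respiratory one 0.28 and the mitochondrial one 0.36, while the nuclear respiratory median itself turned to -0.01, and that of fatty acid oxidation, described below, to -0.07. The same shift was seen in the deposited TPM values, which divide counts by transcript length and library total. There the median of all genes was -0.17 and 18.7% of genes were positive. The nuclear respiratory and fatty acid oxidation medians were again below 0. The mitochondrial median itself was 0.08 with library size scaling and 0.04 on TPM, and the ribosomal one 0.23 and 0.16.

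More genes of fatty acid synthesis lay lower than higher. Of the 31 genes tested for fatty acid and triglyceride synthesis, 19 were negative. At the unadjusted threshold 9 were lower and 3 higher (5.8% and 4.86% of all genes). The median was -0.22, with -0.18 in females and -0.09 in males. SREBF1, the transcription factor that switches these genes on, was at 33.1, 31.3 and 38.6 CPM in NF-control females and at 14.8, 10.2 and 20.4 CPM in OF-training females. In males SREBF1 was at 11.0, 16.7 and 21.9 CPM against 7.12, 10.2 and 8.83 CPM. Both sexes were separated (-1.05, standard error 0.268, adjusted p = 0.151 in edgeR and 0.0287 in DESeq2). Its log2 fold change was -0.96 with overfeeding alone and -0.75 with training alone. For the whole list these medians were -0.09 and 0.02, and in OF-training against NF-control its level overlapped in both sexes. The stearoyl-CoA desaturase SCD, which makes monounsaturated fatty acids, ranged from 0.833 to 489 CPM in NF-control and from 0.387 to 17.7 CPM in OF-training fish (-4.79, standard error 1.60, adjusted p = 0.266). Its spread among NF-control fish was wide, with 113 and 45.4 CPM in 2 females and 489 CPM in 1 male, and at most 3.33 CPM in the other 3. Fatty acid synthase (FASN) was at 411, 66.3 and 245 CPM in NF-control females and at 71.9, 45.0 and 34.1 CPM in OF-training females, which overlap by 1 fish, and males overlapped widely (-1.44 over both sexes, adjusted p = 0.365). The acetyl-CoA carboxylase ACACA (-1.21, adjusted p = 0.382), 1 of 2 genes for the ATP citrate lyase ACLY (-0.86, adjusted p = 0.415), the elongase ELOVL6 (-3.24, adjusted p = 0.327) and thrsp (-2.81, adjusted p = 0.390) lay in the same direction. NF-control replicate 1 weighed on this group, and without it ELOVL6 stood at -1.32 and FASN at -0.92, with 5 genes of the list lower at the unadjusted threshold.

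Not all of this list lay lower. ELOVL2, which elongates polyunsaturated fatty acids, stood at -0.27 (adjusted p = 0.898), with 32.0 to 300.2 CPM in NF-control and 56.1 to 169 CPM in OF-training fish. Malic enzyme ME1 (1.05, adjusted p = 0.422), the lipid droplet protein PLIN2 (0.82, adjusted p = 0.445) and PNPLA3 (0.49, adjusted p = 0.397) were the 3 higher genes. CIDEC, which fuses lipid droplets in fat storing cells, was at 9.31 to 13.3 CPM against 3.96 to 6.25 CPM in females and at 1.25 to 2.39 CPM against 0.267 to 0.540 CPM in males. It was thus apart in both sexes (-1.42, standard error 0.395, adjusted p = 0.196 in edgeR and 0.0483 in DESeq2). Without NF-control replicate 4 the list's median was -0.23, with 1 gene higher and 8 lower. With the length trend removed it was -0.05, in a fit that also differed in method, as said above.

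Sterol synthesis had the lowest median of the 24 gene lists, -0.48, with -0.71 in females and -0.37 in males. Of 24 genes tested 21 were negative, 11 were lower and 1 higher at the unadjusted threshold. MSMO1, a sterol demethylase of the pathway, was at 42.5, 14.3 and 49.6 CPM in NF-control females and at 10.4, 14.0 and 7.83 CPM in OF-training females. In males MSMO1 was at 9.90, 10.7 and 23.2 CPM against 7.56, 8.72 and 8.45 CPM. The groups did not overlap within either sex (-1.27, standard error 0.296, adjusted p = 0.139 in edgeR and 0.0109 in DESeq2). NSDHL, which acts after MSMO1, was separated in both sexes too (-0.89, adjusted p = 0.242). ACAT2, which makes acetoacetyl-CoA at the head of the pathway, was at 19.6 to 89.4 CPM against 4.69 to 5.80 CPM in females, and in males at 18.2, 1.93 and 44.8 CPM against 5.56, 9.10 and 5.25 CPM (-2.71, standard error 0.753, adjusted p = 0.196). SQLE (-2.62), LSS (-1.97), EBP (-1.71), SC5D (-0.97) and DHCR7 (-0.50), all enzymes of the later pathway, were lower at unadjusted p under 0.05, with adjusted p-values of 0.208 to 0.442. insig1, which holds the sterol sensor in the endoplasmic reticulum, stood at -1.38 (adjusted p = 0.204).

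The LDL receptor gene ldlra, a target of SREBF2, overlapped completely, at 27.2 to 311 CPM against 25.4 to 182 CPM (-0.20, adjusted p = 0.931). STARD4, described above, was the list member that was higher. With overfeeding alone the list's median was -0.52 and with training alone -0.36. Without NF-control replicate 4 it was -0.58, and with library size scaling it was -0.47 relative to all genes.

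**Figure D3:**
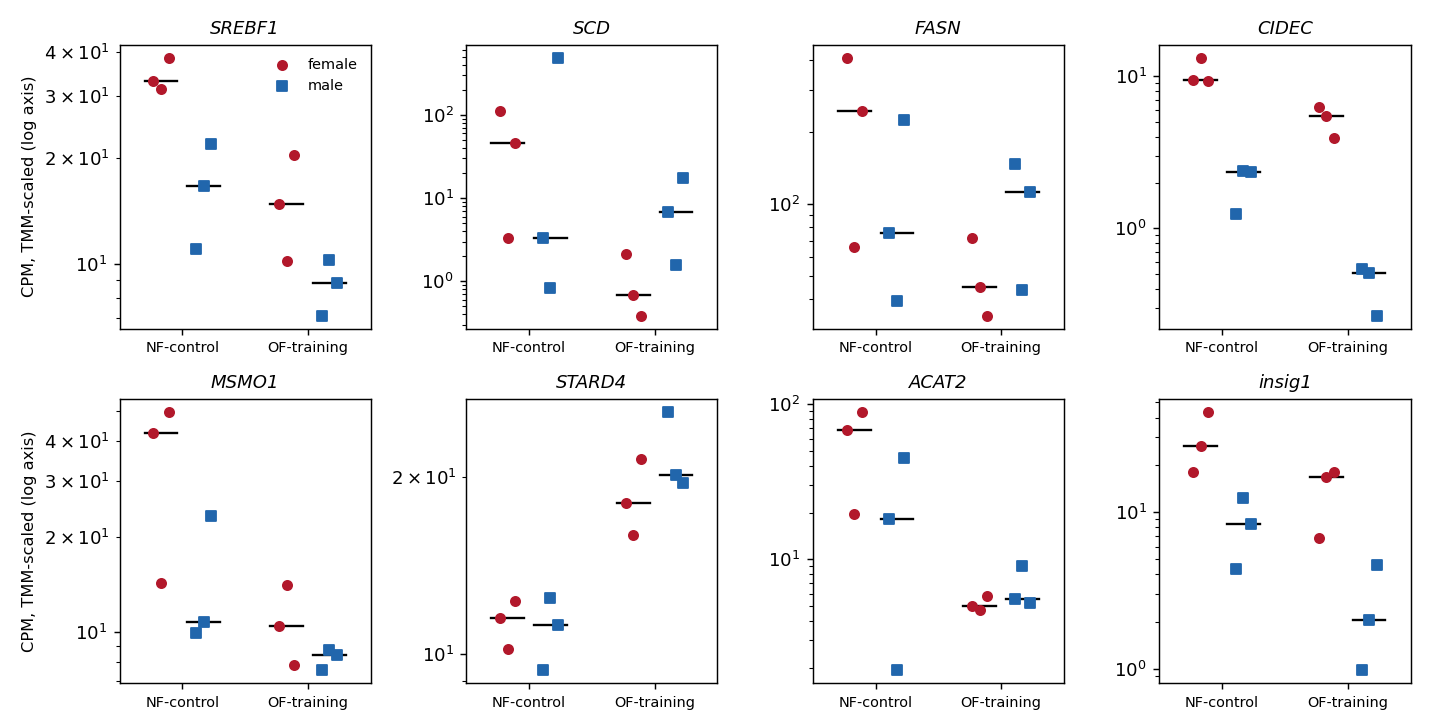
TMM-scaled CPM on log axes of 4 genes of fatty acid synthesis and fat storage (upper) and 4 of sterol synthesis and transport (lower) in each NF-control and OF-training fish, with a bar at the median of each sex. SREBF1, CIDEC, MSMO1 and STARD4 were apart in both sexes, with STARD4 higher in OF-training fish, while SCD ran from 0.833 to 489 CPM among NF-control fish.

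Genes of fatty acid oxidation lay slightly higher, with a larger median in males. Of 34 tested 30 were positive, 3 were higher and none lower at the unadjusted threshold, and the median was 0.17, with 0.05 in females and 0.44 in males. The level of the list was -0.241 to 0.00153 in NF-control males and 0.245 to 0.453 in OF-training males, and it overlapped in females. ACADVL, the first dehydrogenase for long chain fatty acids in mitochondria, was at 40.2, 94.0 and 61.5 CPM in NF-control females and at 153, 132 and 139 CPM in OF-training females. In males ACADVL was at 146, 170 and 82.0 CPM against 250.5, 183 and 258 CPM, again without overlap (0.95, standard error 0.260, adjusted p = 0.188 in edgeR and 0.0454 in DESeq2). It stood at 1.11 with overfeeding alone and at 0.39 with training alone. SLC25A20, the carnitine carrier of the inner membrane, was at 0.75 (adjusted p = 0.327) and hadhaa, of the trifunctional protein, at 0.47 (adjusted p = 0.423). ACADM, for medium chain fatty acids, was at 171 to 285 CPM against 159 to 308 CPM (0.12, adjusted p = 0.857). The ketone body enzyme oxct1b was at 216 to 229.6 CPM against 163 to 189 CPM in females and at 213 to 351 CPM against 430.1 to 563 CPM in males. The groups were thus apart in both sexes, in opposite directions, but the test of the difference between the sexes did not pass (0.14 over both sexes, adjusted p = 0.846, and adjusted p = 0.772 for the difference).

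In sugar metabolism no common direction was seen. Of 49 genes of glycolysis, gluconeogenesis and glycogen 23 were positive, 4 higher and 1 lower at the unadjusted threshold, with a median of -0.03. The liver glycogen phosphorylase PYGL, which releases glucose from glycogen, was at 161, 133 and 51.8 CPM in NF-control females and at 613, 271 and 153 CPM in OF-training females. In males PYGL was at 305 to 373 CPM against 523 to 721 CPM (1.19 over both sexes, standard error 0.334, adjusted p = 0.2). The females overlapped by 1 fish and the males did not. PYGL stood at 1.21 with overfeeding alone and 1.09 with training alone. PKLR, the pyruvate kinase of liver, was at 539 to 2644 CPM against 1263 to 3664 CPM (0.83, adjusted p = 0.508). GAPDH was at 1445 to 3793 CPM against 1024 to 3644 CPM (0.16, adjusted p = 0.847). LDHA, the gene that was lower (-1.77), was at 43.6 CPM in NF-control replicate 4 and at 2.1 to 6.14 CPM elsewhere, and stood at -0.59 (adjusted p = 0.684) without that fish.

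Genes of protein folding went in both directions. Of 42 genes of endoplasmic reticulum folding and the unfolded protein response 25 were positive, 3 higher (1 without NF-control replicate 4) and 4 lower at the unadjusted threshold (median 0.04). PDIA6, a disulfide isomerase, was at 29.4 to 50.7 CPM against 59.3 to 95.5 CPM in females and at 16.6 to 22.2 CPM against 28.1 to 45.8 CPM in males, apart in both (log2 fold change 1.02, standard error 0.245, adjusted p = 0.144 in edgeR and 0.0169 in DESeq2). Its relative PDIA4 (-0.92, adjusted p = 0.241) and the chaperone HSP90B1 (-0.62, adjusted p = 0.303) lay the other way. The translocon subunit SEC61A1 was at 0.37 (adjusted p = 0.536) and XBP1, a transcription factor of the response, at 0.27 (adjusted p = 0.825). Of 33 cytosolic and mitochondrial chaperones 5 were higher (3 without NF-control replicate 4) and 1 lower (median 0.13). TCP1, of the ring that folds actin and tubulin, was separated in both sexes (0.61, standard error 0.195, adjusted p = 0.240), while HSP90AB1 (0.21, adjusted p = 0.689) and HSPA8 (0.21, adjusted p = 0.720) were not. Of 57 proteasome genes 3 were higher and 1 lower (median 0.06), with PSMA1 at 0.31 (adjusted p = 0.395) and PSMA8 at 0.15 (adjusted p = 0.736).

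In amino acid metabolism 39 of 66 genes were positive, 5 were higher and 3 lower at the unadjusted threshold (median 0.05), against 1 and 4 without NF-control replicate 4. AHCY, which breaks down S-adenosylhomocysteine after methylation reactions, was at 1794 to 2720 CPM in NF-control and 3096 to 4233 CPM in OF-training fish. No fish of one group reached the other (0.61, standard error 0.189, adjusted p = 0.227). The tyrosine aminotransferase TAT was at 1166 to 1826 CPM in 5 NF-control fish and at 279 CPM in NF-control replicate 4. It was at 299 to 407 CPM in OF-training males, while OF-training females overlapped with NF-control females (-0.96 over both sexes, adjusted p = 0.358). The arginase ARG2 (-0.97, adjusted p = 0.349) and 1 of 2 genes for the glutaminase GLS2 (-1.28, adjusted p = 0.382) overlapped between groups, and hpda of tyrosine breakdown stood at 0.37 (adjusted p = 0.644). Of 59 antioxidant and glutathione genes 1 was higher and none lower (median -0.01). Their most expressed members were gpx4a (0.11, adjusted p = 0.934), which overlapped in both sexes, and selenop (0.35, adjusted p = 0.594). selenop overlapped in females and was apart in males, at 1112 to 1325 CPM against 1419 to 2206 CPM. HMOX1, which degrades heme, ran from 2.05 to 81.5 CPM in NF-control and from 2.54 to 183 CPM in OF-training fish (1.41, standard error 0.708, adjusted p = 0.496).

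Of 21 iron genes 14 were positive, 2 higher and none lower (median 0.21), with 4 higher without NF-control replicate 4. The 2 were HJV, a coreceptor that controls hepcidin (0.57, adjusted p = 0.25), and the importer slc11a2 (0.66, adjusted p = 0.395). Levels ran widely, with transferrin (tfa) at 6732 to 31665 CPM against 9669 to 43895 CPM (0.61, adjusted p = 0.616) and ceruloplasmin (CP) at -0.15 (adjusted p = 0.880). The iron exporter SLC40A1 was at 14.6 to 22.1 CPM against 25.9 to 102 CPM in females and at 30.9 to 60.7 CPM against 29.8 to 33.6 CPM in males (0.67 over both sexes, adjusted p = 0.617). Its log2 fold change was 2.47 with training alone and 0.22 with overfeeding alone. Of 42 lipoprotein and lipid transport genes 1 was higher and 4 were lower (median 0.02). apoa2 (0.34, adjusted p = 0.720) overlapped in both sexes. apoa1b (0.46, adjusted p = 0.632) overlapped in females and was apart in males, at 12933 to 25932 CPM against 31960 to 37180 CPM. apoea, at 379 CPM in NF-control replicate 4 and at most 5.67 CPM elsewhere, and FABP1, at 118 CPM there and at most 1.81 CPM elsewhere, were among the 4, and without this fish 1 gene of the list was lower. Of 22 bile acid genes none was higher and 3 were lower (median 0.04), namely abcb11a (-3.1, adjusted p = 0.16), the phospholipid exporter ABCB4 (-1.14, adjusted p = 0.266) and the repressor NR0B2 (-1.25, adjusted p = 0.424). Without NF-control replicate 4, 1 of 23 tested was lower and the median was -0.05. Of the bile acid genes DESeq2 called abcb11a alone, as lower. The bile salt export pump ABCB11, a separate gene from abcb11a, had a positive value (0.72 over both sexes, adjusted p = 0.610). ABCB11 was apart in males, at 142 to 187 CPM against 342 to 576 CPM, and overlapped in females. HSD3B7 was at 53.8 to 105 CPM against 143 to 381 CPM in males (0.54 over both, adjusted p = 0.833). Of 57 cytochromes and nuclear receptors 2 were higher and 9 lower (median -0.11). The cytochrome gene cyp2k22 was at 2.05 to 14.1 CPM against 0.846 to 2.16 CPM in females, with 1 fish a side in the overlap, and at 367 to 891 CPM against 815 to 835 CPM in males (-1.27, adjusted p = 0.443). Without NF-control replicate 2 it stood at -0.58, and in the fit without sex as a term its sign was turned. cyp2ad2 was at 252 to 605 CPM against 247 to 682 CPM (adjusted p = 0.999).

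Of 40 clock genes tested none was higher and 3 were lower over both sexes at the unadjusted threshold (median -0.11, with -0.24 in females and 0.05 in males). PER2, a repressor of the clock that also responds to light, was at 19.4, 16.5 and 37.5 CPM in NF-control females and at 3.86, 6.85 and 5.41 CPM in OF-training females. In males it was at 26.5 to 37.2 CPM against 25.0 to 40.2 CPM, which overlap (-2.18 in females and -0.01 in males). The difference between the sexes did not pass the test (adjusted p = 0.515), and neither did PER2 over both sexes (-1.04, adjusted p = 0.266). tefa, an output gene of the clock, was at -0.83 (adjusted p = 0.266). The repressors BHLHE40 (47.7 to 172 CPM in all 12 fish, adjusted p = 0.991) and cry3a (40.0 to 155 CPM, adjusted p = 0.999) overlapped. All livers were taken in the morning, and the hour at which each fish was sampled is not given in the sources used here.

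Many immune genes were highest in NF-control replicate 4, the fish with intestinal transcripts. Of 80 genes of antigen presentation and the interferon response 57 were negative, 15 were lower and none higher at the unadjusted threshold, with a median of -0.34 (-0.11 in females and -0.53 in males). Without NF-control replicate 4 the median was -0.19, with 5 lower and 1 higher. The interferon induced gene ifit15 was at 29.2 CPM in that fish and at most 0.572 CPM in the other 11, and its log2 fold change moved from -4.25 to -0.02 without it. The class II chains mhc2dab (-1.37, and -0.77 without the fish) and mhc2daa (-1.09, and -0.47 without it) were highest there as well. RNF213, a large ubiquitin ligase that is induced by interferon and was in none of the lists, was at 8.35 to 50.9 CPM in NF-control and 5.92 to 10.5 CPM in OF-training fish, apart in both sexes, and stood at -1.72 with that fish and at -1.46 without it (adjusted p = 0.148 and 0.286). The class I chain mhc1uca was at -0.89 and -0.91 (adjusted p = 0.222 and 0.387). The light chains b2ml (-0.25, adjusted p = 0.641) and b2m (-0.33, adjusted p = 0.577) overlapped in females and were apart in males, b2ml at 270 to 352 CPM against 221 to 261 CPM and b2m at 215 to 396 CPM against 184 to 212 CPM. Of 46 complement and acute phase genes 1 was higher and 2 lower (median -0.13), with c3a.1 at -0.12 (adjusted p = 0.949) and fibrinogen (fga) at 0.22 (adjusted p = 0.774).

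Of 28 genes of DNA replication and mitosis 2 were lower and none higher, with a median of -0.31 (0.03 in females and -0.53 in males) that was -0.08 without NF-control replicate 4. TOP2B stood at -0.38 (adjusted p = 0.331) and CCND1 at -0.26 (adjusted p = 0.771). Of 101 genes of histone methylation and chromatin remodelling 2 were higher and 7 lower, beside 4.86% and 5.8% of all genes (median -0.07). Without NF-control replicate 4, 4 were lower. SETD3 was at 25.2 to 38.0 CPM against 22.2 to 215 CPM (1.28, adjusted p = 0.506). NCOR1, a nuclear receptor corepressor, was at 0.27 (adjusted p = 0.867). Of 29 genes of microRNA silencing 2 were lower and none higher (median -0.05), which were the argonautes AGO2 (-1.07, adjusted p = 0.283) and ago3a (-0.70, adjusted p = 0.358), while the deadenylase genes CNOT1 (0.13, adjusted p = 0.844) and CNOT6L (0.38, adjusted p = 0.589) had positive values. Of 52 genes of growth hormone, IGF and nutrient signalling 1 was higher and 4 lower (median 0.08). The growth hormone receptor ghra was at -1.02 (adjusted p = 0.404), IGFALS at 0.06 (adjusted p = 0.947) and eif4ebp3 at 0.37 (adjusted p = 0.855). The caveolar protein gene CAV2, in none of the lists, was at 2.90 to 7.06 CPM against 1.59 to 3.02 CPM and apart in both sexes (-1.24, standard error 0.281, adjusted p = 0.134 in edgeR and 0.0106 in DESeq2).

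When the sexes were taken apart, 11 genes passed in males (0.0678% of those tested) and none in females. In females 1221 of 16223 genes had an unadjusted p under 0.05, DESeq2 called 20 and limma voom none. In males 1267 of 16223 had one, DESeq2 called 125 and limma voom 3. The unadjusted counts were thus close in the sexes. A test of the difference between the sexes called no gene, with 764 of 16223 at an unadjusted p under 0.05. DESeq2 called 18 for this difference and limma voom none. The males' count was unstable, at 0 without OF-training replicate 6, 134 without NF-control replicate 5 and 56 without NF-control replicate 6.

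Of the 11 genes 5 were vitellogenin genes, all lower in OF-training males. vtg1 was at 74.9, 183 and 613 CPM in NF-control males and at 1.08, 0.192 and 0.800 CPM in OF-training males, and fell by 8.70 on the log2 scale. vtg2 was at 18.6 to 133 CPM against 0.922 to 2.49 CPM and fell by 5.31. vtg3 (-5.11), vtg6 (-5.81) and vtg7 (-5.14) passed as well, and for none of the 5 did the male groups overlap. vtg4, at 9.72 to 54.7 CPM against 0.160 to 3.56 CPM, stood at -3.76 and did not pass. vtg5 went the other way, at 49.9 to 107 CPM against 45.2 to 277 CPM (1.34), and vtg8 was at most 0.419 CPM in these males. vtg1, vtg4, vtg5, vtg6 and vtg7 are closely related copies in zebrafish, among which the authors' counting divides shared reads by an estimate, so the split between them is uncertain. Summed over all vitellogenin genes, vitellogenin took a mean of 0.0838% of the counts of NF-control males and 0.0284% of those of OF-training males, a log2 difference of -1.65 (p = 0.3, exact two-sided permutation test over 20 arrangements, which cannot go below 0.1). In females the vitellogenin genes were at -0.04 to 0.33 on the log2 scale. In the 6 fits that left out 1 male, the call of vtg1 was lost without OF-training replicate 6 alone. Those of vtg2, vtg3 and vtg7 held in 3, being lost without any 1 of the OF-training males, and that of vtg6 held in 2. Over all 12 fits, which also left out each female in turn, vtg1 held in 11, vtg2, vtg3 and vtg7 in 9 and vtg6 in 3. The log2 fold change of vtg1 ran from -9.16 to -7.53 over these fits, and those of the other 4 from -6.18 to -4.02.

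**Figure D4:**
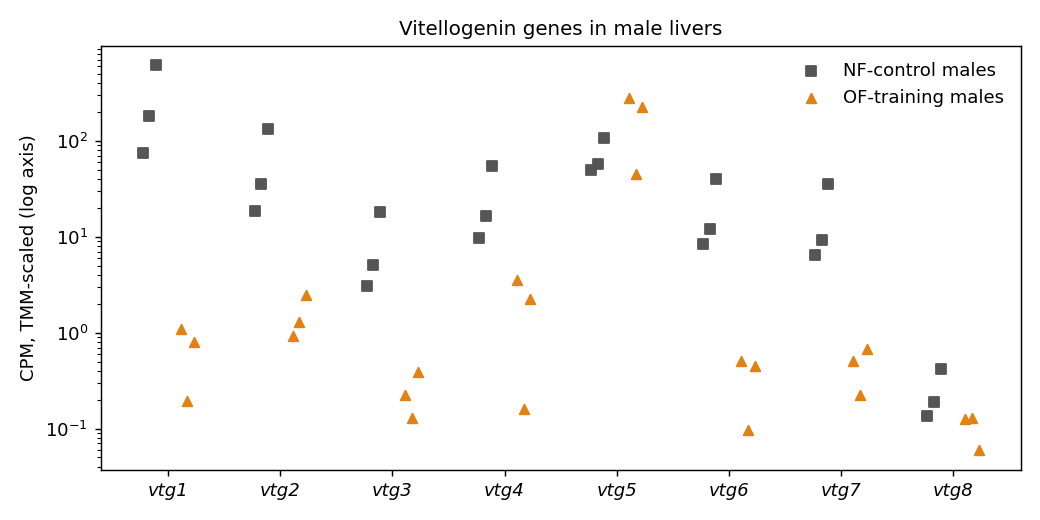
The 8 vitellogenin genes in the 3 NF-control males (squares) and 3 OF-training males (triangles), as TMM-scaled CPM on a log axis. vtg1 was at 74.9 to 613 CPM against 0.192 to 1.08 CPM, whereas vtg5 overlapped.

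The other 6 genes called in males were map7b, a microtubule binding protein that was lower (-2.84), and SPOPL (1.54), GAD2 (2.26), MYL1 (3.66), actc1b (5.69) and si:ch73-367p23.2 (6.84), which were higher. MYL1 and actc1b encode proteins of the muscle sarcomere. actc1b was at 4.07, 8.17 and 75.5 CPM in OF-training males, at no more than 1.1 CPM in NF-control fish and at no more than 0.0966 CPM in OF-training females. The muscle creatine kinase ckma was at 0.922, 1.63 and 16.3 CPM in OF-training males and at no more than 0.376 CPM in NF-control fish. Of the 10 skeletal muscle markers 2 passed the filter on low counts, and their summed level was 0.0512 to 1.48 CPM in NF-control and 0 to 91.9 CPM in OF-training fish. The highest values came from OF-training replicate 6. Their part in the other results was not tested. SPOPL (ENSDARG00000003974), an adaptor of a ubiquitin ligase, was at 6.41 to 10.9 CPM against 15.5 to 31.7 CPM in males and stood at -0.03 on the log2 scale in females. GAD2, a glutamate decarboxylase, was at 0.958 to 1.53 CPM against 2.4 to 8.23 CPM in males. si:ch73-367p23.2 was at 0, 0 and 0.0299 CPM in NF-control males and at 0.191, 0.449 and 4.18 CPM in OF-training males, and with 2 fish at 0 its fitted fold depends on the prior count. map7b was at 0.689 to 2.34 CPM against 0.191 to 0.237 CPM. Estimated counts of SPOPL were 865 to 1890 in OF-control, 363 to 535 in NF-training and 485 to 1068 in OF-training males. Those of GAD2 were 109.5 to 202.3, 32.8 to 47.1 and 74.8 to 270.6, and those of map7b 7 to 11, 4 to 14 and 6 to 8. For MYL1, actc1b and si:ch73-367p23.2 all OF-control and NF-training males lay below all OF-training males. For the 5 vitellogenin genes they lay above. In the 6 fits that left out 1 male, the calls of actc1b and si:ch73-367p23.2 held in 4, that of MYL1 in 3 and those of map7b, SPOPL and GAD2 in 2 each. Over all 12 fits, which also left out each female in turn, actc1b held in 9, map7b in 8 and si:ch73-367p23.2 in 4. MYL1 held in 3 of the 12, and SPOPL and GAD2 in 2 each. The calls of si:ch73-367p23.2, MYL1, SPOPL and GAD2 were thus lost in every fit without a female. Without OF-training replicate 6 the log2 fold change fell to 3.43 for actc1b, 1.65 for MYL1 and 4.52 for si:ch73-367p23.2.

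In females the lowest adjusted p was 0.0650, that of histh1l1, a linker histone, at 4.25, 4.19 and 3.17 CPM in NF-control and 43.4, 17.5 and 70.3 CPM in OF-training fish (3.49 in females and -0.50 in males). No gene passed the test for a departure from the sum of the separate effects of overfeeding and training. In that test edgeR, DESeq2 and limma voom all called none, and 725 of 16223 genes had an unadjusted p under 0.05 in edgeR. With so few fish a group, the absence of calls does not show that the effects added up.

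Markers of other cell types were summed as well. Of 5 intestinal markers tested 4 were lower at the unadjusted threshold, with a median of -1.88 that was -0.05 without NF-control replicate 4. FABP2 was at 704 CPM in that fish and at 0.210 to 16.0 CPM in the others, and apoa4b.1, which liver also makes, was at 0.27 (adjusted p = 0.847). The same fish had the highest acta2 (87.6 CPM), krt4 (250.3 CPM), NCF1 (8.90 CPM) and cfd (65.2 CPM). Of 16 markers of exocrine pancreas 15 were positive (median 0.32), with a summed level of 50.2 to 251 CPM in NF-control and 34.3 to 348 CPM in OF-training fish, and prss1 (0.35, adjusted p = 0.909) and prss59.2 (0.49, adjusted p = 0.841) overlapped. Of 17 macrophage markers 14 were negative (median -0.32), 1 of them lower at the unadjusted threshold, with a summed level of 207 to 298 CPM against 131 to 316 CPM. cd68 stood at -0.04 (adjusted p = 0.978) and lgals3bp.2 at -0.33 (adjusted p = 0.612). Neutrophil markers summed to 4.61 to 16.7 CPM against 4.54 to 9.75 CPM with srgn at 0.15 (adjusted p = 0.875), and lymphocyte markers to 2.78 to 11.4 CPM against 3.58 to 10.8 CPM, with il2rb at -0.42 (adjusted p = 0.533) and ighm at 0.43 (adjusted p = 0.871).

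Erythrocyte markers summed to 53.8 to 195 CPM in NF-control and 44.4 to 304 CPM in OF-training fish. Among them hbaa1 was at 0.71 (adjusted p = 0.655), alas2 at 0.34 (adjusted p = 0.817) and hbaa2 at 1.61 (adjusted p = 0.208), the last apart in males at 1.26 to 2.89 CPM against 6.35 to 12.03 CPM. Biliary markers summed to 429 to 956 CPM against 465 to 814 CPM, with krt8 at 0.10 (adjusted p = 0.919) and krt18a.1 at 0.33 (adjusted p = 0.648). Endothelial and stellate markers summed to 95.5 to 191 CPM against 58.9 to 145 CPM. The endothelial genes kdrl (-0.22, adjusted p = 0.678) and cdh5 (-0.39, adjusted p = 0.443) stood at -0.51 and -0.69 in females, with kdrl at 33.8 to 38.8 CPM against 21.6 to 29.6 CPM. All 4 adipocyte markers tested were negative (median -0.80, and -0.49 without NF-control replicate 4), CIDEC among them, with pparg at -0.39 (adjusted p = 0.702), and lepb was at 0 in all 12 fish. Of 13 markers of germ cells, h1m alone passed the filter on low counts (0.08, adjusted p = 0.951). The hepatocyte transport protein gene TTR was at 18.1 to 64.4 CPM against 30.8 to 89.8 CPM (1.04, adjusted p = 0.315).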

How the data were processed

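Liver RNA of 24 zebrafish was sequenced on a BGISEQ-500. The authors trimmed the reads with Trim Galore and quantified them with kallisto against GRCz11, and deposited estimated counts and TPM (counts divided by transcript length and scaled to a common total) per gene and fish. Estimated counts divide reads among similar transcripts and need not be whole (69.0% of all values were, and 52.0% of those above 0). They were rounded to whole numbers. The library totals and the number of fish set the precision, and p-values cover the spread between fish.

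Fish were grouped by the training, feed and sex labels. Genes were filtered (filterByExpr, minimum count 10), which left 16223 of 32520 genes. TMM scaling and the quasi-likelihood test of edgeR 4.0.16 in R 4.3.3 were applied with group and sex as terms over 24 fish. Effects within a sex came from a model with 1 mean per group and sex. P-values were adjusted over all tested genes by Benjamini-Hochberg (0.05), and adjusted p-values in the text are from edgeR unless DESeq2 is named. Standard errors are the log2 fold change over the square root of F, and log2 CPM used a prior count of 2. Groups were called separated where all OF-training fish lay beyond all NF-control fish of the same sex. Alternatives were DESeq2 1.42.0, limma voom (limma 3.58.1), other scalings, filters, terms and samples, and TPM on the log2 scale with pseudocounts of 1 and 0.1. The fit was tested on simulated data.

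Named genes were the 5 genes a direction with the smallest p, the 2 most expressed genes of each list, and vtg1 and ESR1. The 5 a direction were taken among genes with the same sign in both sexes and a symbol that is not a clone or locus name. Some genes that this rule picks, the gene that passed over both sexes among them, are not reported here. The comparison and the gene lists were chosen with earlier results of these data known, and the mitochondrial list and the removal of the length trend were added after the data were seen. No sequences were used here.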

Additional observations from a re-analysis of the deposited data

Results flagged for a closer look

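In each group of 6 fish the highest or lowest value of a gene was checked for a gap to the next fish above Dixon's 95% critical value. Of 294 groups from 147 genes 25 passed. No chance rate can be set beside this count. Some of the genes were chosen after their values were seen, and each group pools females and males.

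NF-control replicate 4 gave 12 of these values. It was highest for SLC5A1 (128 CPM, next fish 1.54), SLC6A19 (102, next 1.63), VIL1 (198, next 2.78), FABP1 (118, next 0.960), krt4 (250.3, next 20.2), acta2 (87.6, next 5.84), LDHA (43.6, next 6.14), ndufa4b (15.8, next 1.95), ifit15 (29.2, next 0.359), cfd (65.2, next 17.5) and NCF1 (8.90, next 1.11). It was lowest for TAT (279 CPM, next 1166). Whether this liver piece held intestinal tissue was not tested.

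OF-training replicate 3 gave 7. It was lowest for the plasma protein genes tfa (9669 CPM, next 27321) and c3a.1 (1072, next 3707), and for b2ml (165, next 221), cd68 (59.4, next 104), prss1 (5.89, next 26.2) and NCF1 (0.193, next 0.545). It was highest for the stress gene sesn2 (21.6 CPM, next 1.07).

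NF-control replicate 2 was lowest for pparg (2.79 CPM, next 11.6), tefa (18.1, next 39.7) and GLS2 (1.07, next 9.79). OF-training replicate 2 was highest for linc-nlrp12 (2.23 CPM, next 1.47), OF-training replicate 5 for ACAT2 (9.10, next 5.80) and OF-training replicate 6 for VIL1 (2.31, next 0.795).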

How the results depend on the processing

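The number of genes called, 1 over both sexes, was 113 in DESeq2 (35 higher and 78 lower), 2 in limma voom, 2 with library size scaling, 6 with no filter and 2 for the mean of the female and male effects. On TPM it was 120 with a pseudocount of 1 and 114 with 0.1, of which 118 and 112 were lower. It was 0 without the sex term, 0 with the 12 fish alone, 0 with the vitellogenin share as a covariate and 0 with a replicate block in 24 fish or in 12. The replicate numbers did not pair the fish, with correlations of -0.109 to 0.255 over 6 pairs and the own number highest in 1. RLE scaling, a mean of at least 10 counts, vitellogenin genes left out and the length trend removed each gave 1. The difference between the sexes called 18 genes in DESeq2, 6 with library size scaling and 1 with no filter. Females gave 20 in DESeq2 and 1 with no filter, and males 125 in DESeq2, 3 in limma voom and 31 with no filter. Leaving out 1 fish gave 0 to 3 calls over both sexes, 0 to 2 for the sex difference, 0 to 1 in females and 0 to 134 in males. Departure from additivity gave 0 in all fits run. Of the single-gene values 3902 kept direction and side of the threshold, 43 passed it newly, 12 lost it and 137 turned in sign. The last came from 36 of 147 genes, 62 of them with library size scaling or on TPM and 43 on leaving out 1 fish. In 3 the gene had an unadjusted p under 0.05, namely cyp2k22 without the sex term (0.41) and, without NF-control replicate 4, FABP1 (0.081) and krt4 (0.00027), which over the other 11 fits ranged down to -5.19 and -1.82. ELOVL2 turned to 0.28 without NF-control replicate 6, ldlra to 0.25 without NF-control replicate 5 and ighm to -0.29 without OF-training replicate 4. Leaving out 1 fish moved 76 of the 147 genes by over 1.5 times in at least 1 fit. The causes were not tested. Samples of 3 fish a sex limit what can be called, and genes under about 1 CPM rest on few counts.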
